A study of Mus musculus with 6 samples.

Results

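The genes described here are the 78 of 57010 genes in the deposited count table that lie on mouse chromosome 11 with a lowest position from 59700000 to 61400000, in the coordinates of that table. They form the stretch around Rai1 that corresponds to the human interval lost in most people with Smith-Magenis syndrome. RNA had been sequenced from 3 wild-type samples of mouse embryonic stem cells (ESC), which are pluripotent cells grown in culture, and from 3 wild-type samples of primary cortical neurons. The neurons came from E16.5 cortices and had spent 7 days in vitro. The labels name no perturbation or transgene for either group, and no Rai1-deficient sample was analysed here. The 2 groups serve as pluripotent and neuronal reference states in a study of Rai1, and the question put to them here is how the genes of this block differ between those states. The batch recorded in the labels equals the group, so batch and cell state cannot be told apart. Nothing in the labels says that replicates came from separate cultures or animals, so the p-values measure only the spread between these samples. The library names of neuron replicates 2 and 3 hold the word empty, which the labels do not explain.

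RAI1 is a nuclear protein that binds chromatin and regulates transcription, and the nervous system is sensitive to its dosage. Loss of a single copy of the human gene accounts for most features of Smith-Magenis syndrome, while the reciprocal duplication of the interval causes Potocki-Lupski syndrome. The neighbouring genes have unrelated jobs that include lipid synthesis, one-carbon metabolism, protein degradation, cilia, mitochondria and vesicle traffic.

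By gene type in GENCODE release M21, the block held 35 protein-coding genes, 14 processed and 10 unprocessed pseudogenes, 5 antisense RNAs, 4 lincRNAs, 3 miRNAs and 1 snRNA, and 6 genes were not in that release. Of the 78 genes, 33 lay on the plus strand and 45 on the minus strand. Flcn, the folliculin gene often listed with this interval, begins at 59682234 and so lies just before the block. It held 2, 5 and 9 counts in ESC and 0, 2 and 1 in neurons, too few to be tested. The libraries were shallow, with 1368303 to 1775055 counts in ESC and 513425 to 624792 in neurons. The block itself received 1145 to 1399 counts per ESC library and 740 to 938 per neuron library. In CPM, the count scaled to library size with TMM factors, 3 counts were worth 2.26 to 2.90 in ESC and 3.92 to 4.81 in neurons, and a level under that was not detectable at this depth. ESC replicate 2 stood apart from its group, with a chi-square per degree of freedom of 3.96 and 4.16 against the other ESC libraries, which differed from each other by 1.31.

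The markers of the labelled cell types were checked first. All 10 pluripotency markers had counts in ESC, summing to 174 to 301 per library. In neurons that sum was 3 in every library, and 6 of the 10 were at 0. The 10 neuronal markers summed to 732 to 873 counts in neurons and 185 to 220 in ESC, but most were counts of Nefm (699 to 837 and 139 to 168), which shares exonic bases with Nefl on the other strand. The other neuronal markers were low and mixed. Map2 was called higher, with 0, 0 and 1 counts in ESC and 10, 13 and 13 in neurons, and Rbfox3 went from 0 in ESC to 4, 5 and 2, and Dcx from 1, 0 and 0 to 7, 6 and 3, neither of them tested. Stmn2 was called lower, and Tubb3, a general neuronal tubulin, showed 10, 4 and 8 counts in ESC and 4, 2 and 1 in neurons. As a percent of all counts, astrocyte markers went from 0.000271 to 0.000438 in ESC to 0.00643 to 0.0102 in neurons. Oligodendrocyte-lineage markers took 0.0018 to 0.00223 in ESC, mostly Mbp, which was called lower, and 0.00485 to 0.00736 in neurons, where Olig1 was called higher. Microglial markers took 0.015 to 0.0201 in ESC and 0.0158 to 0.0178 in neurons, which overlap. Most of these counts were on Csf1r, which shares exonic bases with Hmgxb3 on the other strand. Csf1r and Cx3cr1, the only ones tested, were called lower, while C1qa, Itgam and Tmem119 were at 0 in all 6 libraries. Fibroblast and endothelial markers reached at most 6 counts in a library. Markers of cycling cells summed to 96 to 176 counts in ESC and 15 to 20 in neurons. Of the other markers called, Map2, Olig1 and Cx3cr1 also share exonic bases with a gene on the other strand. So do Pou5f1 of the pluripotency markers, Slc1a2 of the astrocyte markers and Pcna of the cycling markers. The part of these cell types in the values below was not tested.

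How the counts were assigned bears on every gene that overlaps another. The counting tool's strand setting is not given in the sources used here, so counts of a gene and of its partner on the opposite strand cannot be told apart. Neither is it given whether the libraries keep strand. If they do and were counted with the opposite setting, every value, also of genes with no partner such as Rasd1 and B9d1 or opposite an intron such as 4930412M03Rik and Gm12266, would describe RNA from the other strand at that gene's exons. For a pair such as Smcr8 and Shmt1, a level and its direction could then belong to the partner. The same holds for the markers above, such as Tubb3 and Stmn2, which were low in neurons. Whether the setting was the opposite one was not tested. Each level is given under the name of the gene the counts were assigned to, and may not be that gene's own. The overlap matters in the block because 15 of its 78 genes (19.2%) share at least 1 exonic base with a gene on the other strand, and those 15 held 91.4% ± 0.671 (SD, n = 3) of the block's counts in ESC and 74.8% ± 1.77 (SD, n = 3) in neurons. In the whole table, 16.8% of genes had an opposite-strand exon. They held 91.3% ± 0.52 (SD, n = 3) of all counts in ESC, as in the block. In neurons they held 89.0% ± 0.429 (SD, n = 3), more than in the block. Another 8 members lay only opposite an intron, and 55 had no gene opposite.

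Of the 78 members, 18 passed the filter on low counts and were tested with edgeR's quasi-likelihood method on the whole table. The other 60 were not tested, 29 of them because no library held a count and 31 because their counts were low, at most 17 in a library. Among the 18, 10 rose in neurons, 4 fell and 4 were not called at an adjusted p under 0.05. The share called was 77.8%, where 85.6% of all 7150 genes tested were called, so the block is near the background. Without ESC replicate 2, which stood apart, 12 members were called, 9 higher and 3 lower, and Alkbh5 and ENSMUSG00000120997 no longer passed the filter. The share called higher was 55.6% against 47.0% of all genes tested, and the share called lower 22.2% against 38.6%. The median log2 fold change of neurons over ESC was 0.96 over the 18 members and 0.37 over all genes tested. Of the 10 that rose, 7 passed the filter through the neuron libraries alone (Rasd1, Rai1, 4930412M03Rik, Srebf1, Gm12266, Alkbh5 and B9d1), so they had to differ to be tested, and ENSMUSG00000120997 passed through ESC alone. The counts and medians over the 18 are therefore descriptions. In a fit without the filter, 6 of those 7 were called higher, all but Alkbh5. The groups did not overlap in CPM for 14 of the 18, against 86.4% of all genes tested. In bulk samples, fewer cells of a type and less RNA per cell cannot be told apart.

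**Figure D1:**
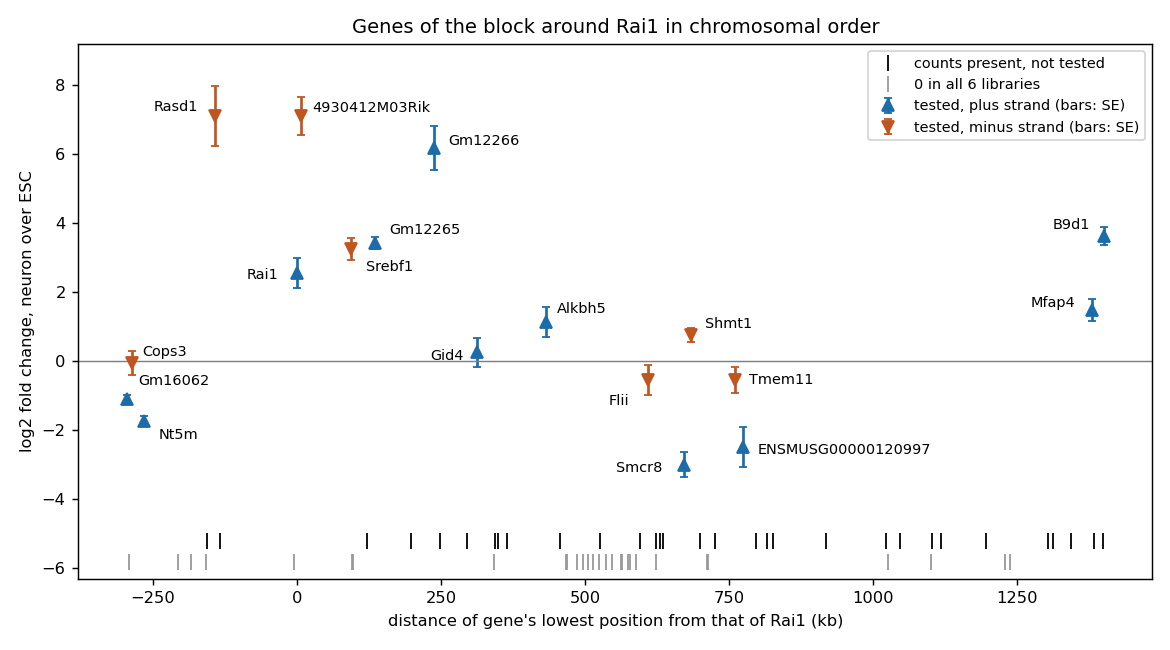
Log2 fold change (neuron over ESC, bars: SE) of the 18 tested members against the distance of each gene's lowest position from that of Rai1, in kb, with triangles pointing up for plus-strand and down for minus-strand genes. Ticks mark members with counts that were not tested and members at 0 in all 6 libraries. The 6 tested genes from Rasd1 to Gm12266 were all higher in neurons, but all except Gm12265 passed the filter through the neuron libraries alone. The genes called lower lay at the start of the block and around Smcr8.

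Around Rai1, the 6 genes that passed the filter, from Rasd1 to Gm12266, were all called higher in neurons. All of them but Gm12265 passed it through the neuron libraries alone, so they had to differ to be tested. Others there, such as Tom1l2 and Pemt, had too few counts to be tested. Rai1 was 5.89-fold higher, Srebf1, a transcription factor that turns on fatty acid and other lipid synthesis genes, 9.61-fold higher, and Gm12265, an antisense RNA within Tom1l2, 10.9-fold higher. The noncoding RNA 4930412M03Rik, which lies inside an intron of Rai1 on the other strand, was almost confined to the neuron libraries.

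The promoter of Rai1 is shown with those of its tail-to-tail partner Srebf1, of Nt5m, the protein-coding member with the highest level per kb in ESC, and of B9d1, the one with the highest level per kb in neurons. The sequences are RefSeq's for GRCm38.p6, a build whose coordinates differ from those of the count table, and run 5′ to 3′ on the gene's strand from 250 bases before the start to 50 after it. Capitals mark the GC box GGGCGG, also where it is read from the other strand as CCGCCC. They stand at chr11:60104763-60105062 (plus) for Rai1, chr11:60222532-60222831 (minus) for the farthest upstream of 3 listed starts of Srebf1, chr11:59847823-59848122 (plus) for Nt5m and chr11:61504894-61505193 (plus) for B9d1.
Rai1: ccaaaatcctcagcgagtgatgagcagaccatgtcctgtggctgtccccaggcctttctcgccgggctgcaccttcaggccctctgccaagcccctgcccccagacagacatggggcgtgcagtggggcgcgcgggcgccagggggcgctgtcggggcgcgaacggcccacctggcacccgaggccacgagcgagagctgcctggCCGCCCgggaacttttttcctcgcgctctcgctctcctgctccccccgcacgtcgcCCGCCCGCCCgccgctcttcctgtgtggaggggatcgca
Srebf1: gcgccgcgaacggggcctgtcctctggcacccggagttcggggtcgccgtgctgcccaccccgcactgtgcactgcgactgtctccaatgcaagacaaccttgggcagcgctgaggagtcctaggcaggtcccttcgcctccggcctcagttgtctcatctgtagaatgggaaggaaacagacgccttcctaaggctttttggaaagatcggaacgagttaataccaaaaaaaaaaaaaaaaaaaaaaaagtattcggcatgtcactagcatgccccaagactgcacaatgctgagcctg
Nt5m: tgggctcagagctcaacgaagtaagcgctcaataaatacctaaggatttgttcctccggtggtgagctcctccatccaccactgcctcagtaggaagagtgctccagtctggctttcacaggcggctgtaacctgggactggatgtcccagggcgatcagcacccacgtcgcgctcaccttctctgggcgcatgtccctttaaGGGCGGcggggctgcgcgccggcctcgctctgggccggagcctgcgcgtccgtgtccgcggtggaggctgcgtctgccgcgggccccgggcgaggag
B9d1: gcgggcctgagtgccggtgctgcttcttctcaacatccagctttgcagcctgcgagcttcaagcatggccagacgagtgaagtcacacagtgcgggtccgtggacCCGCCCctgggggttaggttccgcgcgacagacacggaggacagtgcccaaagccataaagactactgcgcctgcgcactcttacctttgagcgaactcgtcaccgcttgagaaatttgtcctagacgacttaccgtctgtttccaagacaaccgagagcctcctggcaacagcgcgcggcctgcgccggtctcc
The Rai1 promoter held 3 GC boxes, of which the last 2 share bases, in a window of 71.0% G and C. Nt5m and B9d1 each held 1, and the printed window of Srebf1 held none. RefSeq listed 36 promoters for 32 members. Across them the GC box was found in 24 (66.7%), against 35.7% of all 32851 promoters in the table, and the median GC content was 60.8% against 52.7%. The E-box CACGTG was found in 7 (19.4%, against 7.15% of all), those of Aldh3a2, Atpaf2, Drc3, Drg2, Gid4, Mief2 and Natd1. CCAAT was found in 17 (47.2%, against 37.4%), TGACGTCA in 2 (5.56%, against 1.79%), and TATAAA in 0 (against 13.6%). Both strands were searched, and matches of different motifs could share bases. A match describes these letters in this window only.

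Rai1 (ENSMUSG00000062115.16, plus strand, 59995839 to 60090023) held 4, 3 and 6 counts in ESC and 20, 15 and 12 in neurons. All 3 neuron libraries were above all 3 ESC libraries although they were shallower. Its level was 3.78 ± 1.43 CPM in ESC and 22.6 ± 3.44 CPM in neurons (SD, n = 3 each), a log2 fold change of 2.56 (SE 0.43) with an edgeR adjusted p of 1.08e-06. Per kb of exon this was 0.394 CPM in ESC, in a range that overlapped with that of Alkbh5, and 2.35 CPM in neurons. Its low level in ESC lay at 3 to 6 counts a library, so the fold rests on few reads.

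Srebf1 (ENSMUSG00000020538.16, minus strand, 60089915 to 60113407) meets Rai1 tail to tail, and their 3′ ends share 109 exonic bases. It held 8, 5 and 9 counts in ESC and 47, 40 and 41 in neurons, again without overlap. The level rose from 6.33 ± 1.68 to 62.2 ± 3.15 CPM (SD, n = 3 each), with a log2 fold change of 3.26 (SE 0.31) and an edgeR adjusted p of 4.67e-12. Per kb, Srebf1 stood above Rai1 in both groups, at 1.12 CPM in ESC and 11 CPM in neurons. Rai1 took 37.1% of the pair's counts in ESC (95% Clopper-Pearson interval 21.5 to 55.1, for counting error only) and 26.9% in neurons (20.4 to 34.1). By library the share was 33.3%, 37.5% and 40.0% in ESC and 29.9%, 27.3% and 22.6% in neurons, without overlap, although the counting intervals of the sums overlap. The difference in division was not tested.

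The lincRNA 4930412M03Rik (ENSMUSG00000051008.7, minus strand, 60003043 to 60006083) held 0, 1 and 0 counts in ESC and 40, 35 and 46 in neurons. With 1 count in ESC, the ratio of the groups was 204 with a counting interval of 35.8 to 8110, and the edgeR adjusted p was 1.13e-14, or 3.76e-33 without the filter. Its exons share no base with an exon of Rai1. In neurons it had 52.1 CPM per kb, and its lowest neuron library (45.8 CPM per kb) was above the highest of Rai1 (2.72).

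Gm12265 (ENSMUSG00000085132.3, plus strand, 60131590 to 60133716) is annotated as antisense and shares 595 exonic bases with Tom1l2, a gene for an adaptor of endosomal sorting. It held 42, 35 and 30 counts in ESC and 307, 184 and 209 in neurons, the most of any member there. The level rose from 30.9 ± 3.42 to 337 ± 63.2 CPM (SD, n = 3 each; log2 fold change 3.44, SE 0.18, edgeR adjusted p 9.19e-20). Tom1l2 itself held 9, 3 and 5 counts in ESC and 10, 5 and 5 in neurons and was not tested. The ratio of its summed counts per effective library size, neurons over ESC, was 1.98, with a counting interval of 0.985 to 4.02. Gm12265 took 86.3% of the pair's counts in ESC (interval 79.0 to 91.8) and 97.2% in neurons (95.7 to 98.3). Most counts of the locus were thus assigned to the antisense gene in both groups, and they cannot be told apart from counts of Tom1l2.

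Gm12266 (ENSMUSG00000082148.2, plus strand, 60234071 to 60235032) is a processed pseudogene opposite an intron of Tom1l2. It held 1, 0 and 0 counts in ESC and 26, 14 and 23 in neurons. The ratio of the groups was 106 with a counting interval of 18.3 to 4250, and the edgeR adjusted p was 4.14e-11, or 1.34e-17 without the filter. A processed pseudogene resembles its parent gene, so reads of the parent could be counted here.

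Rasd1 (ENSMUSG00000049892.8, minus strand, 59854007 to 59855770) encodes a small Ras-like GTPase induced by glucocorticoids and has no gene opposite. It had 0 counts in every ESC library and 11, 8 and 19 in neurons. Set against the mean level that 3 counts have in an ESC library, it was at least 7.2-fold higher in neurons, with an edgeR adjusted p of 5.6e-09, or 4.43e-12 without the filter. The spread among neurons was wide, at 18.9 ± 10.1 CPM (SD, n = 3).

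**Figure D2:**
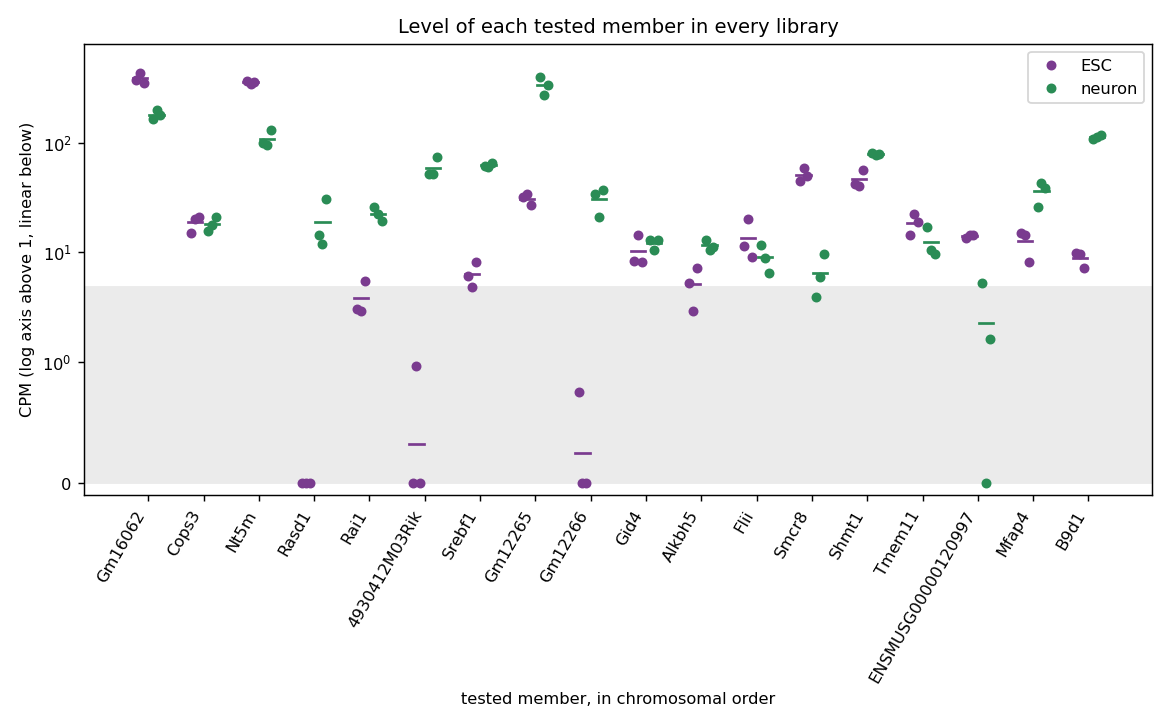
CPM of the 18 tested members in each of the 3 ESC and 3 neuron libraries, in chromosomal order, on an axis that is logarithmic above 1 and linear below. Points are libraries, short lines are group means, and the grey band lies under 4.81 CPM, the largest value that 3 counts have in a library. Rasd1 sits at 0 in ESC, and Gm16062 and Nt5m are the highest members there at 388 and 359 CPM.

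At the start of the block the order was reversed. Gm16062, an antisense RNA, and Nt5m, which encodes a mitochondrial deoxyribonucleotidase, were the most counted members in ESC and were 2.15-fold and 3.32-fold lower in neurons, while Cops3 between them was not called. Gm16062 (ENSMUSG00000087249.3, plus strand, 59700895 to 59709317) held 496, 450 and 393 counts in ESC and 127, 133 and 111 in neurons. This was 388 ± 41.9 against 181 ± 16.4 CPM (SD, n = 3 each; log2 fold change -1.10, SE 0.13, edgeR adjusted p 1.6e-09). Under scaling to total counts, which raises the median of all genes by 0.73, the log2 fold change was -0.37. Nt5m (ENSMUSG00000032615.15, plus strand, 59730273 to 59771794) held 486, 358 and 402 counts in ESC and 77, 64 and 81 in neurons. Its level fell from 359 ± 10.7 to 109 ± 18.6 CPM (SD, n = 3 each; log2 fold change -1.73, SE 0.15, edgeR adjusted p 1.55e-13), or -1.0 under scaling to total counts. For both genes the lowest ESC library was above the highest neuron library in CPM.

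Cops3 (ENSMUSG00000019373.12, minus strand, 59708621 to 59730664) encodes a subunit of the COP9 signalosome, which removes NEDD8 from cullin ubiquitin ligases. Its exons share 279 bases with Gm16062 at their ends and 87 bases with Nt5m at their starts. It held 20, 21 and 23 counts in ESC and 12, 12 and 13 in neurons, with overlapping CPM of 18.7 ± 3.19 and 18.1 ± 2.6 (SD, n = 3 each; log2 fold change -0.04, SE 0.34, edgeR adjusted p 0.908). Gm16062 took 95.4% of its pair's counts in ESC (interval 94.2 to 96.5) and 90.9% in neurons (87.7 to 93.5). Nt5m took 95.1% (93.8 to 96.2) and 85.7% (80.9 to 89.7) of its own. On both sides the plus-strand partner held most counts, and a little less of them in neurons.

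Smcr8 and Shmt1, which meet tail to tail and share 184 exonic bases, moved in opposite directions. SMCR8 works with C9orf72 and WDR41 in a complex of autophagy and lysosome function, and SHMT1 is the cytosolic enzyme that passes one-carbon units from serine to folate. Smcr8 (ENSMUSG00000049323.9, plus strand, 60668350 to 60679113) held 60, 61 and 55 counts in ESC and 3, 4 and 6 in neurons. It was 7.93-fold lower in neurons, at 6.5 ± 2.89 against 51.3 ± 7.05 CPM (SD, n = 3 each; log2 fold change -2.99, SE 0.36, edgeR adjusted p 1.18e-09). Shmt1 (ENSMUSG00000020534.15, minus strand, 60678930 to 60702544) held 56, 42 and 62 counts in ESC and 62, 52 and 49 in neurons, which are shallower. It rose from 46.3 ± 8.53 to 79 ± 1.75 CPM (SD, n = 3 each; log2 fold change 0.77, SE 0.21, edgeR adjusted p 0.00124), and the groups did not overlap. Scaled to total counts the log2 fold change of Shmt1 was 1.5. Smcr8 held 52.4% of the pair's counts in ESC (interval 46.9 to 57.8) and 7.39% in neurons (3.99 to 12.3). Of the 8 overlapping pairs, this one moved most in its division.

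The gene without a symbol ENSMUSG00000120997 (plus strand, 60769738 to 60772083) was the fourth member called lower. It shares 361 bases head to head with Tmem11, whose product sits in the inner mitochondrial membrane. ENSMUSG00000120997 held 18, 15 and 16 counts in ESC and 4, 0 and 1 in neurons, or 14.2 ± 0.547 against 2.27 ± 2.67 CPM (SD, n = 3 each; log2 fold change -2.48, SE 0.57, edgeR adjusted p 0.000148). Neuron replicate 1 held 4 of the 5 neuron counts, and without it the log2 fold change was -3.98. Tmem11 held 19, 23 and 21 counts in ESC and 13, 7 and 6 in neurons and was not called (log2 fold change -0.54, SE 0.37, edgeR adjusted p 0.175). Of the counts of the pair, the share on the plus-strand gene was 43.8% in ESC (interval 34.4 to 53.4) and 16.1% in neurons (5.45 to 33.7). With 31 counts of the pair in neurons, that second share is loosely fixed.

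**Figure D3:**
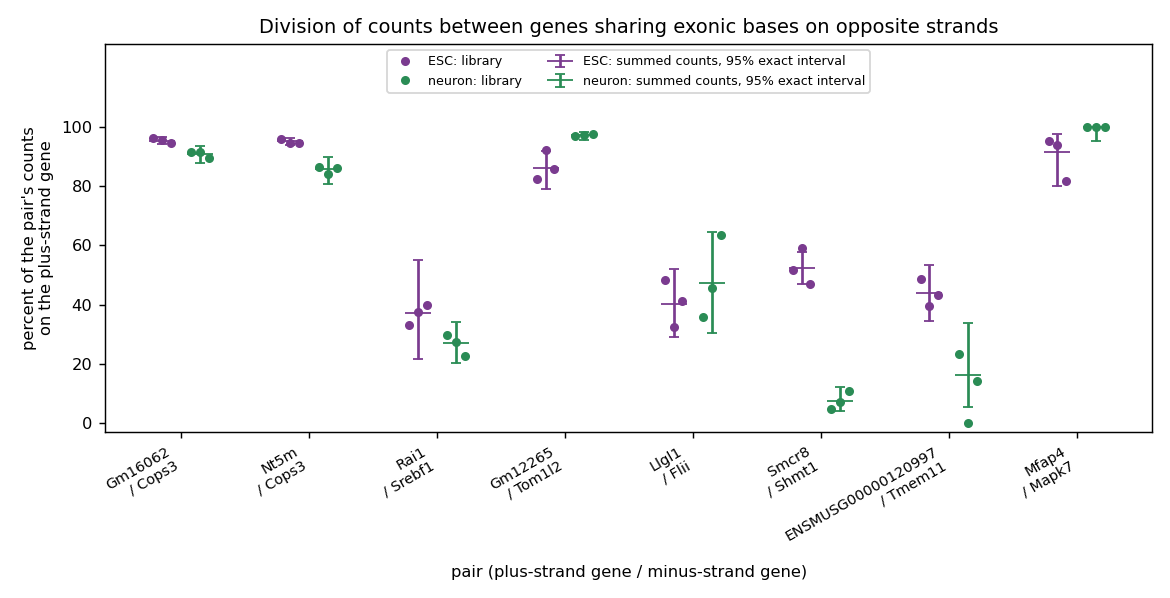
Percent of each pair's counts that fell on the plus-strand gene, for the 8 pairs of members sharing exonic bases on opposite strands. Points are libraries, and lines with bars are the summed counts of a group with a 95% exact interval. The share of Smcr8 falls from 52.4% to 7.39%, while that of Rai1 stays between 22.6% and 40.0% in every library.

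The far end of the block held 2 more genes that rose. B9D1 belongs to the transition zone at the base of the primary cilium, and MFAP4 is a glycoprotein of the extracellular matrix. B9d1 (ENSMUSG00000001039.13, plus strand, 61395970 to 61403757) held 13, 10 and 8 counts in ESC and 83, 76 and 74 in neurons and shares no base with an opposite gene. It rose 12.5-fold, from 8.9 ± 1.44 to 113 ± 5.14 CPM (SD, n = 3 each; log2 fold change 3.64, SE 0.26, edgeR adjusted p 1.72e-15). In neurons it was the protein-coding member with the highest level per kb, at 68.0 to 74.5 CPM against 28.4 to 38.6 for Nt5m, the next. Mfap4 (ENSMUSG00000042436.13, plus strand, 61376257 to 61379726) held 20, 15 and 9 counts in ESC and 20, 29 and 24 in neurons. It rose from 12.6 ± 3.84 to 35.9 ± 8.84 CPM (SD, n = 3 each; log2 fold change 1.48, SE 0.32, edgeR adjusted p 7.5e-05). Mapk7, a MAP kinase gene that shares 89 bases with the end of Mfap4, held 1, 1 and 2 counts in ESC and 0 in neurons, so Mfap4 held 91.7% and 100% of the pair.

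In the middle of the block, Gid4 and Flii were not called and Alkbh5 was called weakly. Gid4, the substrate receptor of the CTLH ubiquitin ligase, held 11, 15 and 9 counts in ESC and 10, 7 and 8 in neurons (log2 fold change 0.26, SE 0.41, edgeR adjusted p 0.56). Flii, an actin-binding protein of the gelsolin family, held 15, 21 and 10 counts in ESC and 9, 6 and 4 in neurons (log2 fold change -0.53, SE 0.43, edgeR adjusted p 0.249). In CPM, both genes overlapped between the groups. Alkbh5, which removes methyl groups from adenosine in RNA, held 7, 3 and 8 counts in ESC and 10, 7 and 7 in neurons and was called higher (log2 fold change 1.14, SE 0.44, edgeR adjusted p 0.0161). That call was lost under 6 of 11 alternatives, among them leaving out any single neuron replicate, with adjusted p up to 0.382. Llgl1, a cell polarity gene whose end shares 64 bases with Flii, held 14, 10 and 7 counts in ESC and 5, 5 and 7 in neurons and was not tested. It took 40.3% of the pair's counts in ESC (interval 29.2 to 52.1) and 47.2% in neurons (30.4 to 64.5), and the shares of single libraries overlapped.

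Levels per kb of exon put the tested protein-coding members in a different order in each state. In ESC, Nt5m (103 to 109 CPM per kb) stood far above Shmt1 (10.5 to 14.4) and Tmem11 (8.19 to 12.8), which overlapped. A middle group of Smcr8 (5.59 to 7.31), Mfap4 (4.24 to 7.83), B9d1 (4.54 to 6.14) and Cops3 (4.36 to 6.03) could not be ordered. In ESC the lower end ran through Flii (1.80 to 4.03), Gid4 (1.67 to 2.98), Srebf1 (0.859 to 1.45) and Alkbh5 (0.485 to 1.21) to Rai1 (0.303 to 0.566) and Rasd1 at 0, where neighbours overlapped except Gid4 with Srebf1 and Rai1 with Rasd1. In neurons, B9d1 and Nt5m were followed by Shmt1 (mean 20.3), which overlapped with Mfap4 (13.6 to 22.5), and by Srebf1 (10.6 to 11.7), which overlapped with Rasd1 (7.40 to 18.9). Rasd1 also overlapped with Mfap4 and Tmem11. Tmem11 (5.51 to 9.72) and Cops3 (4.53 to 6.03) overlapped with each other. Gid4 (2.14 to 2.68), Rai1 (2.01 to 2.72), Alkbh5 (1.74 to 2.18) and Flii (1.27 to 2.33) were not distinguishable in neurons, and Smcr8 (0.485 to 1.19) was lowest. The noncoding members Gm16062 and Gm12265 had 231 and 228 CPM per kb in neurons, but they share exonic bases with Cops3 and Tom1l2, so they are not ranked against the coding genes. The order of Nt5m, Cops3, Shmt1, Smcr8, Srebf1, Rai1, Mfap4, Tmem11 and Flii carries the same limit. The unknown strand setting limits the order of every gene ranked here, B9d1, Rasd1, Gid4 and Alkbh5 included.

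Of the 35 protein-coding members, 13 were tested, with 7 higher and 2 lower, and 22 were not, with at most 14 counts in a library. Among genes of all types tested, 47.0% were called higher and 38.6% lower. Top3a, a DNA topoisomerase, starts 158 bases from Smcr8 on the other strand. It held 11, 5 and 4 counts in ESC and 1, 1 and 2 in neurons, a ratio of ESC over neurons of 2.97 with a counting interval of 0.996 to 12. A fit without the filter on low counts gave Top3a an edgeR adjusted p of 0.0826. At this shared start only Smcr8 passed the filter.

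That fit tested the 49 members with any count and called 18, against 40.8% of all genes tested in it, 10 higher and 8 lower. It lost Alkbh5 and added 5 members with few counts. Map2k3os, an antisense RNA whose start lies 89 bases from that of the stress kinase gene Map2k3, held 13, 8 and 6 counts in ESC and 1, 0 and 0 in neurons. It was lower by a ratio of 16.0 with a counting interval of 2.65 to 657, at an edgeR adjusted p of 0.00035. Map2k3 itself held 3, 2 and 2 counts in ESC and 0 in every neuron library. The pseudogene Gm12267 held 17, 5 and 7 counts in ESC and 2, 0 and 1 in neurons, lower by a ratio of 5.75 with a counting interval of 1.78 to 29.5. Drg2, a GTP-binding protein, held 8, 5 and 2 counts in ESC, and the potassium channel gene Kcnj12 had 4, 1 and 5. Both were at 0 in neurons, and both were called lower in that fit. Tnfrsf13b, a gene of the TNF receptor family, was called higher, at 0, 0 and 1 counts in ESC and 3, 2 and 3 in neurons. All of these counts lie close to the floor.

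Several well-known members had too few counts to be placed. The Mediator subunit gene Med9 held 6, 1 and 0 counts in ESC and 1, 4 and 1 in neurons, and Med9os, whose start lies 26 bases away, had 0 throughout. Pemt, which makes phosphatidylcholine by methylation, had 0 in ESC and 2, 0 and 1 in neurons. Atpaf2, an assembly factor of the mitochondrial ATP synthase, had 3 in each ESC library and 7, 6 and 2 in neurons. Mief2, a mitochondrial fission factor, had 6, 7 and 5 and then 3, 5 and 5, and the deubiquitinase gene Usp22 had 3, 1 and 8 and then 2, 1 and 2. None of these was called in the fit without the filter. Dhrs7b held 2, 4 and 5 counts in ESC and 6, 7 and 6 in neurons, and Drc3, a ciliary dynein regulator gene with a start 423 bases from that of Tom1l2, had 3, 2 and 2 and then 0, 1 and 1. The hair-cell myosin gene Myo15, the dehydrogenase genes Aldh3a1 and Aldh3a2, Natd1, Rnf112 and Slc47a2 had at most 5 counts in any library. B9d1os, with a start 84 bases from that of B9d1, had 1 count in all. Slc47a1, which encodes an efflux transporter of organic cations, was the protein-coding member at 0 in all 6 libraries. Among noncoding members, the snRNA Gm23341 held 4, 9 and 10 and then 2, 3 and 3 counts, and the lincRNA Gm45605 held 5, 2 and 1 and then 6, 2 and 1. The miRNAs Mir5100, Mir6921 and Mir6922 were at 0 too, in libraries made from polyadenylated RNA.

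Between Alkbh5 and Llgl1 lay an array of 16 minus-strand pseudogenes over 132 kb (60451750 to 60583901). The 4 long copies of 1983 to 1986 bases were 98.9 to 99.6% identical to each other. The 12 short copies of 381 to 385 bases had a median identity of 98.7% (83.2 to 100%), and 1 of their 66 pairs was identical. The array received 3 counts in all, spread over 2 copies. Reads that match several near-identical copies may be counted for none of them or split, so a level of the array is uncertain. None of its copies was tested.

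Block counts as a share of each library rose from 0.0803% ± 0.00375 in ESC to 0.145% ± 0.0105 in neurons (SD, n = 3 each), with every neuron library above every ESC library. The neighbouring windows of the same size rose too, from 0.125% to 0.353% before the block and from 0.0435% to 0.0676% after it. The exact two-sided permutation test gave p = 0.1, the smallest that 3 against 3 samples allow, and 0.1 after adjustment over the 3 shares tested. Without Gm16062 and Gm12265, the member with the most counts in each group, the shares were 0.0488% and 0.0822%, so the difference went from 0.0648 to 0.0334 percentage points. Minus-strand members held 13.3% ± 0.918 of block counts in ESC and 24.3% ± 0.908 in neurons (SD, n = 3 each; exact permutation p = 0.1). Leaving out the same 2 genes gave 21.8% and 42.9%, a difference of 21.1 rather than 11 points. The share on members with an opposite-strand exon fell by 16.6 points in neurons (exact permutation p = 0.1). It fell by 30.4 points without those 2 genes, and fell by 9.43 points when any overlap with the span of an opposite gene counted. All 3 shares kept their direction, but their size turns on a few genes.

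**Figure D4:**
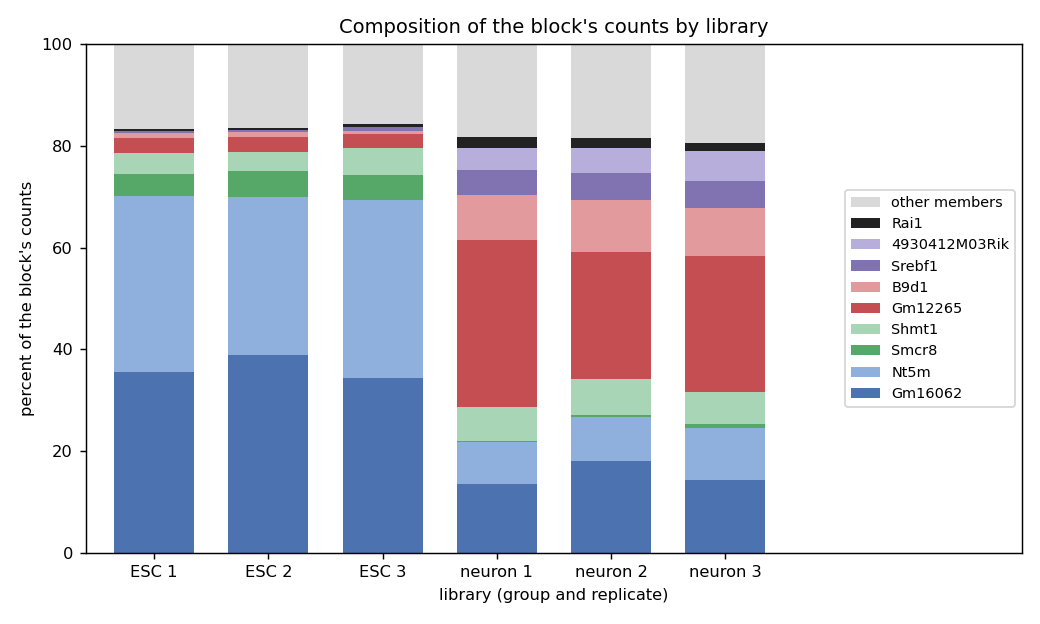
Percent of the block's counts on 9 members and on the others together, for each of the 6 libraries as bars from 0 to 100. In the ESC bars, Gm16062 and Nt5m take 36.2% and 33.6% on average, and in the neuron bars Gm12265 is the largest segment at 28.1%.

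A few genes made up most of the block's counts. Gm16062 went from 36.2% of block counts in ESC to 15.2% in neurons, Nt5m from 33.6% to 9.08%, and Gm12265 from 2.88% to 28.1%. Together they held 72.7% ± 0.588 in ESC and 52.4% ± 1.77 in neurons (SD, n = 3 each). Each of these genes has a partner with shared exonic bases on the other strand.

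By strand, 6 of the 11 plus-strand members tested were higher and 4 lower, and 4 of the 7 on the minus strand were higher and none lower. Over all genes tested, on either strand, 47.0% were called higher and 38.6% lower. By overlap, 5 of the 12 tested members with an opposite-strand exon were higher and 4 lower. Of the 3 opposite an intron only, Gm12266 and 4930412M03Rik rose and Gid4 was not called. The 3 without a gene opposite (Rasd1, Alkbh5 and B9d1) were all called higher. These 3, Gm12266 and 4930412M03Rik passed the filter through the neuron libraries alone, so they had to differ to be tested. Whether calls differ between these classes was not tested.

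The windows on either side were also read for calls. The window before the block (57999999 to 59699999) held 100 genes, of which 17 were tested and 12 called (70.6%), 10 higher and 2 lower, with a median log2 fold change of 0.79. The window after it (61400001 to 63100001) held 54 genes, of which 12 were tested and 8 called (66.7%), 4 in each direction, with a median of -0.03. Of all genes tested, 85.6% were called, and their median log2 fold change was 0.37. The block had 37.2% of its genes at 0 in all libraries and 23.1% tested, against 49.4% and 12.5% in the whole table.

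Lists of genes outside the block, pathway members of SREBP factors and protein partners of block products, were read beside it. Of 30 genes of SREBP processing and lipid synthesis, 10 were tested, 5 were higher in neurons and 3 lower, with a median log2 fold change of 0.64, where 85.6% of all genes tested were called. The balance of directions turned with the filter. Without it, 5 of 30 tested were higher and 11 lower, where 40.8% of all genes tested were called. With a mean of at least 10 counts, 1 of 6 tested was higher and 3 lower. Among genes with no exon opposite, 1 of 6 tested was higher and 4 lower. Gpam, which starts triglyceride synthesis, rose from 1, 1 and 1 counts to 16, 11 and 10 (log2 fold change 4.17, edgeR adjusted p 9.46e-09). Fdft1, the squalene synthase, rose from 29, 24 and 37 to 72, 58 and 51 (1.74, 1.65e-08) and shares exonic bases with Ctsb. Acly, which supplies acetyl-CoA, fell from 35, 24 and 36 counts to 1, 1 and 3 (log2 fold change -3.42, edgeR adjusted p 8.16e-08). Fasn, the fatty acid synthase, fell from 32, 21 and 22 to 1, 3 and 2 (-2.83, 2.38e-06). As a share called, the list is near the background. Leaving out a replicate also changed how many genes of the list were tested. Without ESC replicate 1, 4 of 7 tested were called, in place of 8 of 10. Without ESC replicate 3 it was 5 of 7, and without neuron replicate 2 it was 12 of 14.

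Of 40 genes for protein partners of block products, 11 were tested, 2 were higher in neurons and 7 lower, with a median log2 fold change of -1.12, again beside 85.6% called over all genes tested. Scaled to total counts, 3 were higher and 4 lower. Rmi1, a partner of topoisomerase TOP3A, held 4343, 3058 and 3539 counts in ESC and 260, 265 and 249 in neurons (log2 fold change -3.06, edgeR adjusted p 1.23e-25) and shares exonic bases with Hnrnpk. The COP9 subunit gene Cops6, which shares exonic bases with Mcm7, fell by 2.14 on the log2 scale (edgeR adjusted p 2.64e-15). Cops7b went from 27, 24 and 26 counts to 0, 1 and 0 (edgeR adjusted p 2.01e-08), and Cops7a from 34, 20 and 30 to 2, 0 and 0 (4.6e-08). A further COP9 subunit gene, Gps1, fell less (log2 fold change -1.12, edgeR adjusted p 1.29e-05). Cops3 in the block was not called, and its difference from these COP9 genes was not tested.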

How the data were processed

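Counts per gene were taken as deposited by the authors, with gene positions, strand and exonic length. The column names are those of STAR alignments, per the file headers. The submitters' processing notes also list cutadapt, RSEM and the builds GRCm39 and mm39, without roles or versions; the counting tool is not given in the sources used here. The molecule was polyadenylated RNA read as paired ends, per the labels' protocols. Symbols and types came from GENCODE M21 by identifier (52029 of 57010 genes). Genes were kept by filterByExpr (minimum count 10, 7150 genes), scaled by TMM and compared with edgeR 4.0.16 (glmQLFit robust, glmQLFTest) in R 4.3.3 over all 6 samples, with Benjamini-Hochberg adjustment over all genes tested and a threshold of 0.05. CPM used the totals of the kept genes times the TMM factors. Exons were intersected with bedtools 2.31.1. Shares of counts were compared by exact two-sided permutation tests, and intervals of shares are Clopper-Pearson at 95%. The depth was 513425 to 1775055 counts per library. No 2 replicates agreed within sampling noise. Alternatives were DESeq2 1.42.0 (size factors and Wald test), total-count and upper-quartile scaling, limma-voom (limma 3.58.1), other filters, the replicate number as a block and leaving out each replicate. The edgeR steps were run on simulated counts in which 200 of 7150 genes changed 4-fold. There 84% of the changed genes were recovered, and 6.15% of the calls were false. That setting differs from these data, where most genes tested were called, so it cannot show how the steps behave here. Described in full were Rai1, Srebf1, Tom1l2, Flcn, Top3a, every member passing the filter and their overlapping partners, and from each list the 4 tested genes with the lowest adjusted p. Other members are given by counts, and Gps1 of the partner list is given beside Cops3. Members, lists and tests were chosen with earlier results of these data known.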

Additional observations from a re-analysis of the deposited data

How the results depend on the processing

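Depth limits all values of low genes, batch equals group, and how strand was treated in counting is not given in the sources used here. Of the 14 called members, 13 kept their call and direction in every alternative that tested them, and the 6 lost calls all belonged to Alkbh5. Without a filter on low counts, 8 of 49 block members tested were lower. In that fit 16 of 30 SREBP genes and 15 of 40 partner genes were called, beside 40.8% of all genes tested. With a mean of at least 10 counts, 4 of 6 SREBP genes tested were called. In a fit limited to genes whose exons overlap none on the other strand, chosen after seeing the data, 4 members were called of 6 tested, 4 higher and 0 lower, with 5 SREBP and 4 partner genes, since most members leave that fit. Leaving out 1 replicate gave 12 to 15 members called, 9 to 11 higher and 3 to 4 lower, with 13 to 22 tested. It gave 4 to 12 SREBP genes called with 7 to 14 tested, and 7 to 12 partner genes with 8 to 17 tested. The difference in block share then ran from 0.0613 to 0.0708 points, in minus-strand share from 10.5 to 11.5 and in opposite-strand exon share from -17.4 to -15.7. Among members not called, Cops3 changed sign to 0.68 under total counts, 0.17 under upper-quartile factors, 0.32 with a mean of at least 10 counts, and ran from -0.27 to 0.06 when 1 replicate was left out. Under total counts Flii was at 0.20, Tmem11 at 0.19 and Gid4 at 0.98, now called, while Gid4 was at -0.49 among genes without an opposite exon. The cause was not tested. DESeq2's Wald test called 13 members. With the replicate block, 14 members were called, 10 higher and 4 lower. Deviations of same-numbered samples correlated from -0.0223 to 0.0189, so the numbers do not pair the samples, and the block changed no call.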
